A study of Mus musculus with 3186 samples.

Results

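Capillary endothelial cells of the adult mouse brain were divided by whether they carried Fos messenger RNA, and the genes that went with Fos were read within each sorting plate. From the endothelial columns of the count table, 651 cells had at most 1 of the arterial genes Bmx, Gkn3, Sema3g, Vegfc and Efnb2 at 20 CPM or more (reads per 1000000 reads of the cell) and the venous-side carrier Slc38a5 under 50 CPM. Of these, 122 had Fos at 100 CPM or more (Fos-positive), 426 had no Fos read (Fos-negative), and 103 lay between and entered neither side. They belong to 1445 endothelial cells and to 3186 cells in all. The members were chosen by their measured levels of Fos and of the 6 genes of the capillary rule, so those values only describe the choice.

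All cells of both sides came from C57BL/6 mice, 12 to 15 weeks old, that carry the reporter transgene Cldn5(BAC)eGFP, in which a bacterial artificial chromosome with the promoter of the tight junction gene Cldn5 drives green fluorescent protein in brain endothelium. Cells were sorted by fluorescence, 1 per well, on the 4 plates EC3 to EC6, and each gave 1 full-length library made by the Smart-seq2 method. The sorted mural cells used for comparison below carried Pdgfrb(BAC)eGFP/NG2dsRed on the same strain and at the same age, a pair of reporters that overlap in pericytes and smooth muscle. The labels name no animal, so the line counts as 1 sample and no difference has a test. Spread is given over the 4 plates, which are sorting plates and not animals. The intervals given with shares cover the counting of cells alone, as if cells were independent draws. They hold no spread between animals.

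Fos is an immediate early gene: its messenger is made within minutes of a stimulus, without new protein synthesis, and is soon degraded. The Fos protein pairs with Jun family proteins to form the transcription factor AP-1. Growth factors, flow, calcium entry and cyclic AMP can all start such genes in endothelium, through serum response factor, its partners and the factor CREB, and tissue dissociation is known to start them in many cell types. When the messengers were made relative to the sort was not measured here. Other genes of the same rapid class encode the zinc finger factors of the Egr and Klf families, the orphan nuclear receptors of the Nr4a family, and proteins that end the response, such as MAP kinase phosphatases and factors that destroy short-lived messengers. Heat shock chaperones are switched on by a different factor, heat shock factor, when proteins unfold.

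Fos had from 103 to 15150 CPM in the Fos-positive cells, with a median of 1018 CPM. The 5 members nearest the threshold had 103 to 148 CPM of Fos from 36 to 58 reads, and the 2 cells just outside it had 78.5 and 91.6 CPM from 25 to 28 reads. Fos-positive cells were 18.7% of the capillary-rule cells (exact 95% interval 15.8 to 22.0), with 15.7% on plate EC3, 21.6% on EC4, 19.4% on EC5 and 18.4% on EC6. The plates held 24, 33, 31 and 34 Fos-positive cells in the order EC3 to EC6, against 100, 105, 101 and 120 Fos-negative cells. Fos-positive cells were 18.2% of the capillary cells in plate rows A to H and 19.4% in rows I to P, and 17.7% in columns 1 to 12 and 19.7% in columns 13 to 24.

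The Fos-positive cells had a median of 354295 reads in genes (106703 to 593808), and the Fos-negative cells 330868 (107459 to 554554). They also had more genes with a read, at a median of 2699.5 in Fos-positive cells and 2412 in Fos-negative cells, and at 2409 and 2132 after every cell was thinned to 90000 reads. The 9 pan-endothelial markers summed to 41412 CPM in the Fos-positive pool, against 43272 CPM in the Fos-negative pool, so both sides carried the labelled cell type. Xist, the transcript of the silenced X chromosome, reached 20 CPM in 59.0% of Fos-positive cells and 53.5% of Fos-negative cells, and no cell of either side had a Y-linked gene of the check at that level.

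Fos lies on chromosome 12 at 85473890 to 85477273 on the plus strand of GRCm38 (mm10). The 250 bases before the transcription start of Fos and of 5 genes that went with it are shown because the motif TGACG, the short form of the CREB site TGACGTCA, recurs in them. The stretches are from RefSeq on build GRCm38.p6, written 5′ to 3′ along each gene's strand, with TGACG on either strand (CGTCA on the other) in capitals and the whole TGACGTCA in capitals where it is present. They cover chr12:85473640-85473889 (plus strand) for Fos, chr15:101266596-101266845 (plus) for the nuclear receptor gene Nr4a1, chr8:84978749-84978998 (minus) for the AP-1 gene Junb, chr7:45526269-45526518 (minus) for the stress phosphatase subunit Ppp1r15a, chr1:134079156-134079405 (minus) for the growth arrest gene Btg2 and chr17:26508473-26508722 (minus) for the MAP kinase phosphatase Dusp1.
Fos: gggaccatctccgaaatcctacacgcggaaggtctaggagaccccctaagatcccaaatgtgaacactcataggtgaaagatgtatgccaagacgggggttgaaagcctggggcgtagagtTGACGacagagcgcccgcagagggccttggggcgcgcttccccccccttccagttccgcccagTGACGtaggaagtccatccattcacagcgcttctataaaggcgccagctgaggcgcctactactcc
Nr4a1: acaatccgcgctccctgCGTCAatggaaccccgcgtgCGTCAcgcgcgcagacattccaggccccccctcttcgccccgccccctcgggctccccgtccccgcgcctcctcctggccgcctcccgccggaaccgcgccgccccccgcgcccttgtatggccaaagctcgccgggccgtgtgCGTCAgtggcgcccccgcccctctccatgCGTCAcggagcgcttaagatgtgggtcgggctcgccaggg
Junb: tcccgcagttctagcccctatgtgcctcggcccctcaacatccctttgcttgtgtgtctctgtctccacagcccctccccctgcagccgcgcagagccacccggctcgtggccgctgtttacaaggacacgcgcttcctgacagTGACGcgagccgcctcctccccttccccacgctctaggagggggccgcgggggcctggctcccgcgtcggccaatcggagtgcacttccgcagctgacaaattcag
Ppp1r15a: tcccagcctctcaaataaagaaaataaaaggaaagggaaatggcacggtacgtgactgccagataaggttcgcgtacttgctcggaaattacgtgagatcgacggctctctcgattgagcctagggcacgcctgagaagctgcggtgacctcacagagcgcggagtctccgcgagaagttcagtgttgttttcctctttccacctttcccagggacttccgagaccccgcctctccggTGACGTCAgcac
Btg2: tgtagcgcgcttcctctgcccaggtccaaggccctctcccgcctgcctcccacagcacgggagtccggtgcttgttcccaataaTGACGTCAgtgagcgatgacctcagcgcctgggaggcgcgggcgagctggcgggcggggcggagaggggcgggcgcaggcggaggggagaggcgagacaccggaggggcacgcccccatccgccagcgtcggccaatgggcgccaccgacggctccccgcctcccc
Dusp1: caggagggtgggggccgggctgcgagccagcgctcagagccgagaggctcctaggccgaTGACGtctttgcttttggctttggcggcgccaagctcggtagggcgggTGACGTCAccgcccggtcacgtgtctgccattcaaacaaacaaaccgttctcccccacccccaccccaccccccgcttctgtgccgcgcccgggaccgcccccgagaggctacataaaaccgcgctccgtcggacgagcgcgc

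The motif TGACG begins 129 and 66 bases before the Fos start, and 4 copies lie before Nr4a1. Of the 16 genes that were called and named below, 12 were counted, with windows searched on both strands. No window was matched for 1810011O10Rik, Ier2 and Hsp90aa1. Egr1, on chromosome 18, was left out before the count, so the shares below do not cover it. TGACG was in 8 of those 12 windows (66.7%), against 17.8% of all 32851 RefSeq windows of the same length. The windows of this background, used for each motif, were not matched to the named genes in expression or base composition. The shares therefore describe the windows and do not measure enrichment of a site. The whole TGACGTCA, which contains TGACG on both strands, was in 3 of 12 windows (25%, those of Ppp1r15a, Btg2 and Dusp1), against 1.55% of all windows. The AP-1 motif TGANTCA was in 0 of 12, against 6.75% of all windows, and the CArG box bound by serum response factor was in 1 of 12 (Zfp36), against 1.47%. The heat shock element core GAANNTTC was in 4 of 12 (Jun, Hspa1a, Hspa1b and Hspb1), against 6.69%. The windows of Hspa1a and Hspa1b are nearly the same sequence, so they are not separate matches. A match is a string of letters in this window, and occupancy of these sites was not measured.

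Of 10241 genes with at least 5 CPM on either side, 30 (0.293%) were at least 2-fold higher in Fos-positive cells on the pool and on each of the 4 plates, and 66 (0.644%) were at least 2-fold lower by the same rule. On the pool alone the counts were 785 higher (7.67%) and 655 lower (6.4%), so most differences of that size did not repeat across the plates. Log2 ratios are of CPM plus 1, and their median over all genes was 0.00. Among the 30 higher genes, 16 had at least 50 CPM and reads in at least 25% of Fos-positive cells, and these are named here. They are Egr1, Nr4a1, Cyr61, Junb, Zfp36, Ppp1r15a, Jun, 1810011O10Rik, Hspa1a, Apold1, Hspa1b, Btg2, Ier2, Hsp90aa1, Hspb1 and Dusp1, and that they rise on every plate follows from how they were picked.

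**Figure D1:**
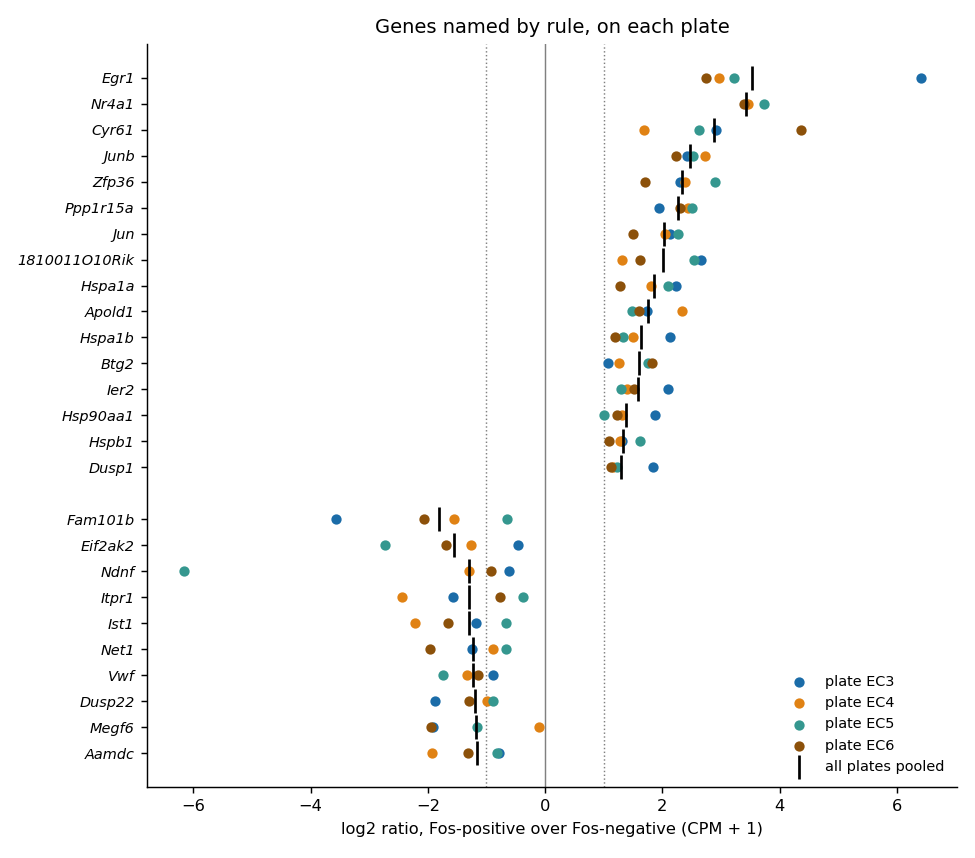
Log2 ratio of Fos-positive over Fos-negative capillary cells (horizontal axis, CPM plus 1) for the 16 higher genes and the 10 nearest lower genes. Points are the plates EC3 to EC6, the black bar is the pool and the dotted lines mark 2-fold. All points of the upper 16 genes lie beyond the right dotted line, and the points of Nr4a1 lie close together, from 3.39 to 3.74.

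The transcription factors of the immediate early class led the list. Egr1, a zinc finger factor first described in growth factor responses, had 699, 240, 163 and 443 CPM in Fos-positive cells of plates EC3, EC4, EC5 and EC6, against 7.25, 30.0, 16.7 and 65.6 CPM in Fos-negative cells of the same plates. Every Fos-positive pool lay above every Fos-negative pool, and the log2 ratio was 3.53, with 6.41 on plate EC3 and 2.74 to 3.21 on the other 3 plates. Egr1 was not a gene of most Fos-positive cells: 32.0% of them had a read of it, against 12.2% of Fos-negative cells, and 1 cell gave 12.6% of its reads on the positive side.

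Nr4a1, an orphan nuclear receptor gene, had 600, 297, 418 and 766 CPM in Fos-positive cells of EC3 to EC6, against 55.0, 26.1, 30.4 and 72.0 CPM in Fos-negative cells (log2 ratio 3.43). The pools did not overlap and the ratio hardly differed between plates, at 3.39 to 3.74. It was read in 73.0% of Fos-positive cells, against 23.9% of Fos-negative cells, and reached 100 CPM in 54.1% (exact 95% interval 44.8 to 63.2) against 9.86% (7.20 to 13.1). Nr4a1 was thus carried by the majority of Fos-positive cells, unlike Egr1.

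The Jun family, whose proteins are the partners of Fos in AP-1, was called in 2 of its 3 members, Jun and Junb. Junb had 293, 274, 533 and 298 CPM in Fos-positive cells of EC3 to EC6, against 53.7, 40.6, 92.2 and 62.7 CPM in Fos-negative cells (log2 ratio 2.48, plates 2.23 to 2.72). Jun had 1086, 1167, 1612 and 804 CPM, against 246, 281, 336 and 282 CPM in Fos-negative cells (2.03, plates 1.51 to 2.26). Jund, the member with the steadiest expression in most tissues, had 54.0 CPM in Fos-positive cells and 27.9 CPM in Fos-negative cells (0.92, plates 0.63 to 1.22) and did not reach 2-fold. Jun was not confined to Fos-positive cells, since 39.0% of Fos-negative cells had it at 100 CPM or more, against 81.1% of Fos-positive cells.

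Of the other Fos family genes, Fosb had 42.6 CPM in Fos-positive cells and 3.85 CPM in Fos-negative cells, and was read in 24.6% and 3.52% of them (log2 ratio 3.17, plates 2.23 to 5.22, called). Fosl2 had 75.9 CPM in Fos-positive cells and 19.1 CPM in Fos-negative cells (1.94), with plate values from -0.55 to 2.81, and Fosl1 had no read in any cell of either side. Ier2, a nuclear protein of the same rapid class, had 738, 316, 373 and 483 CPM in Fos-positive cells of EC3 to EC6, against 171, 119, 152 and 168 CPM in Fos-negative cells (1.59). Fosb and Ier2 were called, and Fosl2 was lower on plate EC4.

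Atf3, a stress-induced factor that can pair with Jun proteins, differed between plates. Its level was 314, 357 and 844 CPM in Fos-positive cells of EC3, EC4 and EC5, against 45.5, 67.5 and 43.3 CPM in Fos-negative cells. On EC6 it was 52.7 CPM in Fos-positive cells and 49.7 CPM in Fos-negative cells, a log2 ratio of 0.08. The pooled log2 ratio was 2.92, 1 cell gave 27.7% of the Fos-positive reads, and Atf3 was not called.

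The Krüppel-like factors Klf2 and Klf4, which keep endothelium quiescent and respond to flow, were read in most or many cells of both sides. Klf2 had 774, 601, 766 and 642 CPM in Fos-positive cells of EC3 to EC6, against 421, 366, 377 and 404 CPM in Fos-negative cells. The pools did not overlap, but the log2 ratio of 0.81 (plates 0.67 to 1.02) stayed under 2-fold. Klf4 had 236 CPM in Fos-positive cells and 87.1 CPM in Fos-negative cells (1.43, plates 0.71 to 1.83). Klf6 had a log2 ratio of 0.40 (plates -0.36 to 0.98), and Klf10 had 59.7 CPM in Fos-positive cells and 84.6 CPM in Fos-negative cells (-0.50, plates -1.21 to 1.42).

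The remaining immediate early genes were low. Egr3 had 1233 reads in Fos-positive cells, from 6.56% of them, and 3 reads in Fos-negative cells, and none on plate EC5 in Fos-positive cells. Nr4a3 had 150 reads in Fos-positive cells, against none in Fos-negative cells. That is 163-fold if 3 reads are set for the Fos-negative pool, without allowance for counting error in the Fos-positive pool. At 3.55 CPM in Fos-positive cells Nr4a3 lay under the 5 CPM filter, and its plate log2 ratios ran from 0.24 to 3.17. A single cell gave 58.0% of those Nr4a3 reads. Nr4a2 had a log2 ratio of 1.19 (plates 0.59 to 1.75), Ier5 of 0.68 (0.20 to 1.37), Csrnp1 of 1.93 (-0.73 to 3.09), Maff of 1.15 (-0.41 to 1.81) and Srf of 0.87 (-0.43 to 1.56). Egr2 and Myc had under 2 CPM on both sides, and Egr4 had no read.

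Over the whole list of 24 immediate early transcription factors, 19 were counted, 6 were called higher (Egr1, Nr4a1, Junb, Jun, Ier2 and Fosb) and 0 lower, beside the 0.293% of all genes called higher. On all 4 plates 12 of the 19 were higher, against 5.59% of all genes. The median log2 ratio of the list was 1.59, and 1.83, 1.39, 1.39 and 1.27 on plates EC3 to EC6. Cell by cell, Fos-positive cells had a median of 7 of these genes at 20 CPM or more (range 1 to 15), against 4 in Fos-negative cells (range 0 to 17). The distributions overlapped on each plate, and the medians differed in the same direction on each.

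**Figure D2:**
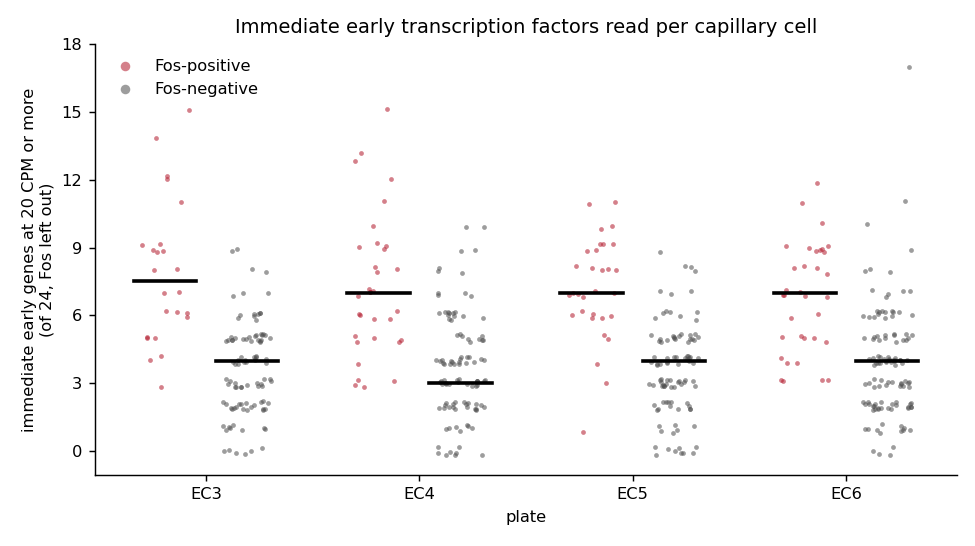
Number of the 24 immediate early transcription factor genes (Fos left out) at 20 CPM or more in each capillary cell (vertical axis), by plate, with Fos-positive cells in red to the left and Fos-negative cells in grey to the right. Each point is a cell, shifted slightly so that points do not hide each other, and black bars are medians, which are 7 to 7.5 in Fos-positive cells and 3 to 4 in Fos-negative cells.

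The second group to go with Fos was that of genes that shorten the response. Zfp36, which encodes tristetraprolin, a protein that destroys messengers with AU-rich elements, had 529, 383, 1356 and 745 CPM in Fos-positive cells of EC3 to EC6, against 106, 72.5, 181 and 227 CPM in Fos-negative cells (log2 ratio 2.34). Btg2, an antiproliferative gene that speeds the loss of poly(A) tails, had 606, 768, 1580 and 1945 CPM, against 287, 321, 466 and 549 CPM in Fos-negative cells (1.61). Both rose on each plate, and both sides were higher on EC5 and EC6 than on EC3 and EC4. Of the 17 counted genes of messenger decay, growth arrest and survival, 4 were called higher (Zfp36, Btg2, Ppp1r15a and Trib1) and 0 were called lower, beside 0.293% and 0.644% of all genes. Their median log2 ratio was 0.83.

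Ppp1r15a, the GADD34 subunit that directs a phosphatase to the translation factor eIF2α, had 194 CPM in Fos-positive cells and 39.4 CPM in Fos-negative cells (log2 ratio 2.27, plates 1.94 to 2.51). Trib1, a pseudokinase gene, had 60.3 CPM in Fos-positive cells and 14.0 CPM in Fos-negative cells (2.03, plates 1.46 to 2.78). Below the call, the small GTPase gene Rhob had 512 CPM in Fos-positive cells and 331 CPM in Fos-negative cells (0.63, plates 0.15 to 1.15), and the antiproliferative gene Tob1 had 141 and 116 CPM (0.28). Gadd45g had a log2 ratio of 2.12, with 43.5% of its Fos-positive reads in 1 cell. Zfp36l1, a relative of Zfp36, had 164 CPM in Fos-positive cells and 170 CPM in Fos-negative cells (-0.05, plates -0.12 to 0.10).

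Dusp1, a phosphatase that switches off MAP kinases, had 2016, 1477, 2459 and 2393 CPM in Fos-positive cells of EC3 to EC6, against 561, 663, 1050 and 1096 CPM in Fos-negative cells. The pools did not overlap, and the log2 ratio was 1.29 (plates 1.13 to 1.84). Dusp1 was also read in 83.1% of Fos-negative cells, against 94.3% of Fos-positive cells. It was the 1 gene called higher of 12 counted genes of MAP kinase feedback, beside 0.293% of all genes. The ERK phosphatase gene Dusp6 had 386 CPM in Fos-positive cells and 256 CPM in Fos-negative cells (0.59, plates 0.47 to 0.74), and the receptor signalling inhibitor Spry1 had 46.1 and 53.3 CPM (-0.20). The list's median of 0.60 spread widely, from 1.34 on EC3 to -0.33 on EC6.

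Heat shock genes formed the third group. The inducible HSP70 gene Hspa1a had 1424, 1432, 1506 and 996 CPM in Fos-positive cells of EC3 to EC6, against 303, 407, 350 and 410 CPM in Fos-negative cells (log2 ratio 1.86). Its near-identical neighbour Hspa1b had 139, 132, 26.8 and 45.2 CPM in Fos-positive cells, against 30.9, 46.4, 10.1 and 19.2 CPM in Fos-negative cells (1.63). How reads were divided between these copies is not given in the sources used here, so their separate levels are uncertain. Hspa1a was read in 88.5% of Fos-positive cells, against 50.0% of Fos-negative cells, so the difference was not that of a few cells.

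The small chaperone Hspb1 had 312 CPM in Fos-positive cells and 124 CPM in Fos-negative cells (log2 ratio 1.32, plates 1.09 to 1.62). The cytosolic HSP90 gene Hsp90aa1 had 180 CPM in Fos-positive cells and 69.1 CPM in Fos-negative cells (1.37), with 1.01 on EC5, and its constitutive relative Hsp90ab1 had 1879 and 1467 CPM (0.36, plates 0.14 to 0.55). The HSP70 co-chaperone gene Bag3 had 89.4 CPM in Fos-positive cells and 63.1 CPM in Fos-negative cells (0.50, plates -0.14 to 1.44). Hspd1, a mitochondrial chaperone, had 27.0 and 31.6 CPM (-0.22). In all, 4 of 15 counted heat shock and chaperone genes were called higher and 0 lower, beside 0.293% and 0.644% of all genes. These 4 include both Hspa1a and Hspa1b, whose separate levels are uncertain. The list's median was 0.85 on the pool, and 0.78, 0.47, 0.38 and 1.03 on plates EC3 to EC6. Genes of the unfolded protein and integrated stress responses had a median of 0.13, with 0 of 15 called, near the shares over all genes. The endoplasmic chaperone gene Hspa5 had 350 CPM in Fos-positive cells and 382 CPM in Fos-negative cells (-0.13).

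Cyr61 (now Ccn1), a matricellular protein gene and a classical target of serum response factor and YAP, had 766, 548, 398 and 1119 CPM in Fos-positive cells of EC3 to EC6, against 101, 169, 63.4 and 53.1 CPM in Fos-negative cells (log2 ratio 2.88, plates 1.69 to 4.37). It was the 1 gene called of 14 counted cytoskeletal targets of these factors, whose median was 0.02, beside 0.293% of all genes called higher. The relative Ctgf had 51.2 CPM in Fos-positive cells and 74.0 CPM in Fos-negative cells (-0.52, plates -0.65 to -0.23). Cyr61 and Ctgf, often used side by side as YAP readouts, thus had ratios of opposite sign on every plate.

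Apold1, an endothelial early response gene, had 1060, 1783, 2209 and 2085 CPM in Fos-positive cells of EC3 to EC6, against 319, 351, 788 and 687 CPM in Fos-negative cells (log2 ratio 1.75). The pools did not overlap. The transcript 1810011O10Rik had 246 CPM in Fos-positive cells and 60.6 CPM in Fos-negative cells (2.00, plates 1.31 to 2.65). Nqo1, an oxidative stress enzyme on the flow list, was called with 35.6 CPM in Fos-positive cells and 4.45 CPM in Fos-negative cells (2.75), but from 7.38% and 2.58% of the cells. Edn1, the vasoconstrictor endothelin, had 342 CPM in Fos-positive cells and 107 CPM in Fos-negative cells (1.67, plates 0.42 to 2.33) and was not called. Nos3, which makes nitric oxide, had 370 and 379 CPM (-0.03).

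On the pool, the levels of most named genes climbed with the amount of Fos, less regularly within plates. Capillary cells were set in 4 steps of Fos: no read (426 cells), a read under 100 CPM (103), 100 to under 1000 CPM (60) and 1000 CPM or more (62). Pooled Jun was 286, 534, 928 and 1398 CPM over these steps, pooled Junb 62.4, 84.3, 214 and 479 CPM, and pooled Zfp36 150, 245, 364 and 1133 CPM. On plate EC6, Jun had 282, 261, 685 and 963 CPM over the steps, and on EC4 Junb had 40.6, 29.5, 215 and 330 CPM and Zfp36 had 72.5, 215, 184 and 573 CPM, so the lower steps did not always keep the order. On the pool 12 of the 16 named genes were higher at each step than at the one before, as 3.01% of all genes were, and the plates EC3 to EC6 had 5, 6, 9 and 3 such genes, with 0 on every plate. The contrast that picked these genes spans the same steps, so this count describes them. Within the Fos-positive side, 15 of 16 had more at 1000 CPM or more of Fos than at 100 to under 1000 CPM on the pool, as 50.6% of all genes did, and 11 of 16 on every plate, as 5.71% did. Egr1 had 31.1 and 28.0 CPM in the lowest steps and 194 and 533 CPM in the highest. Median reads per cell were 330868, 335362, 353134 and 365298 over the steps, and median genes per cell 2412, 2431, 2698 and 2711.

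**Figure D3:**
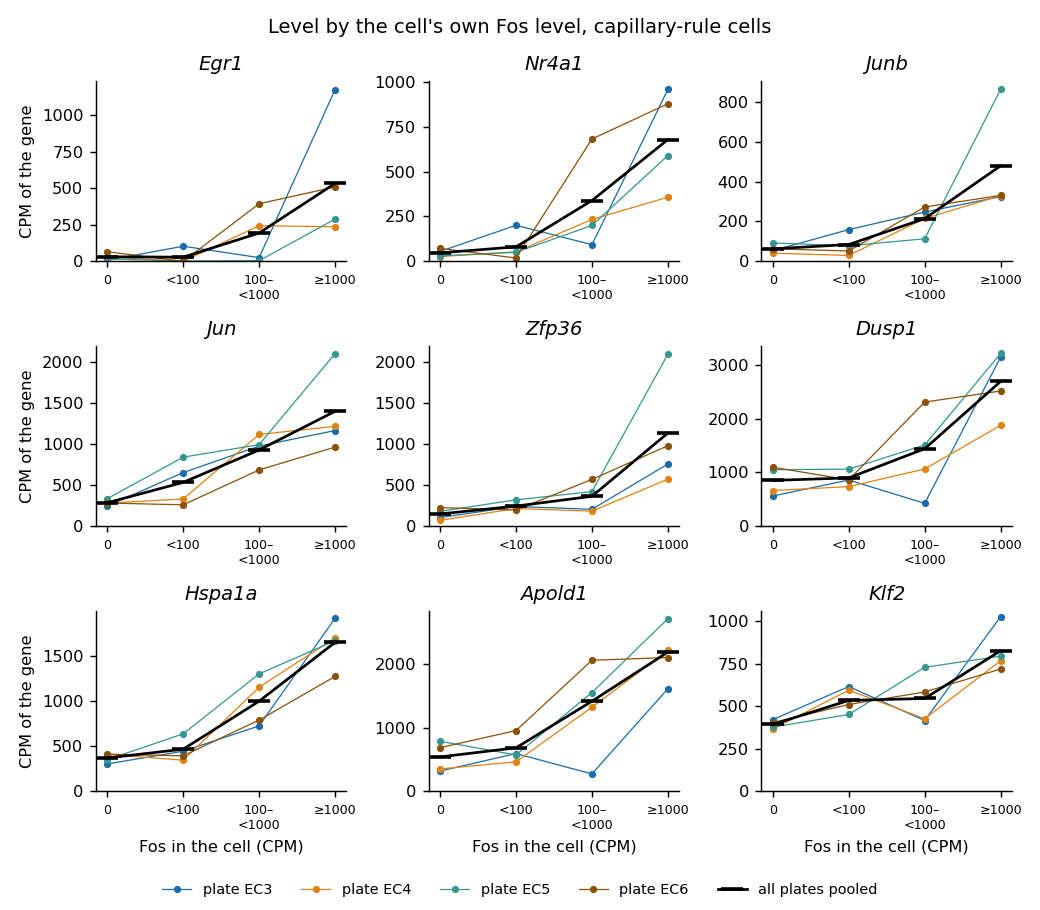
Level of 9 genes (vertical axis, CPM) against the Fos level of the cells (horizontal axis, 4 steps in CPM), in all 651 capillary-rule cells. Thin lines are plates and the thick black line is the pool, which climbs from the second step to the last for each of the 9 genes, as for Jun at 534, 928 and 1398 CPM.

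Inflammatory and glucocorticoid genes were rarely called, as were all genes (0.293% higher and 0.644% lower). At those shares a count of 0 does not set such a short list apart. The 18 counted genes of NF-kappaB signalling, cytokines and adhesion had a median log2 ratio of 0.15, and 0 of them were called higher and 1 lower. The 1 lower gene was the leukocyte adhesion molecule Vcam1, also a marker of the venous side, at 2.91 CPM in Fos-positive cells and 20.8 CPM in Fos-negative cells (-2.48, plates -4.20 to -1.78). Socs3, a feedback inhibitor of cytokine signalling, had 33.6 CPM in Fos-positive cells and 9.41 CPM in Fos-negative cells (1.73, plates 0.78 to 3.96). Of 10 counted glucocorticoid-response genes 0 were called, and the list's median was 0.27. Tsc22d3, a glucocorticoid target, had 924 CPM in Fos-positive cells and 742 CPM in Fos-negative cells (0.32, plates -0.21 to 1.02), and the kinase Sgk1 had 534 and 218 CPM (1.29, plates 0.19 to 2.24).

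Barrier genes were mostly at similar or lower levels, and none passed the call, as 0.293% of all genes did upward and 0.644% downward. Of 22 counted blood-brain barrier transporters 0 were called in either direction, and the median log2 ratio was -0.26. On every plate 7 were lower and 0 higher, as 8.76% and 5.59% of all genes were. On the pool 1 was at least 2-fold lower, as 6.4% of all genes were. The glucose carrier Slc2a1 had 7493 CPM in Fos-positive cells and 7299 CPM in Fos-negative cells (0.04), the glutamine carrier Slc38a3 had 976 and 1376 CPM (-0.49, plates -0.72 to -0.28), and the glutamate carrier Slc1a1 had 341 and 499 CPM (-0.55, plates -0.73 to -0.41). Slc16a1, the lactate carrier, had 1024, 553, 975 and 538 CPM in Fos-positive cells of EC3 to EC6, against 1015, 983, 1906 and 1951 CPM in Fos-negative cells (-0.97), with a ratio of 0.01 on EC3 and lower levels on the other 3 plates. The tight junction gene Cldn5, whose promoter drives the reporter, had 24133 CPM in Fos-positive cells and 25031 CPM in Fos-negative cells (-0.05). The medians of the junction, Wnt, oxidative phosphorylation and ribosomal protein lists lay between -0.09 and -0.01.

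Among signalling genes of vessels few were called, as among all genes (0.293% higher and 0.644% lower). Counts of 0 in these short lists are near those shares. The Notch target Hes1 had 358, 423, 311 and 213 CPM in Fos-positive cells of EC3 to EC6, against 77.5, 138, 126 and 131 CPM in Fos-negative cells (log2 ratio 1.45), with 0.70 on EC6, so it was not called. Of 11 counted Notch genes 0 were called (median 0.13). Angpt2, a Tie2 ligand of activated endothelium, had 53.3 CPM in Fos-positive cells and 166 CPM in Fos-negative cells (-1.62, plates -2.82 to -0.50) and was read in 14.8% of each side. The median was -0.11 for 27 growth factor and receptor genes, of which 1 was called lower, the apelin receptor Aplnr, named after its value was seen. It was 0.10 for 14 clock genes, -0.16 for 16 genes of hypoxia and glycolysis, 0.04 for 10 caveolae genes, 0.33 for 10 tip cell genes and -0.01 for 6 cell cycle genes, and 0 genes of these 5 lists were called. The tip cell median was -0.42, -0.66, -0.15 and 0.61 on plates EC3 to EC6, so the pool hides a change of sign. The plate medians of the clock (-0.09 to 0.39), caveolae (-0.34 to 0.41) and cell cycle lists (-0.59 to 1.03) also changed sign. For 5 nuclear-retained RNAs the pooled median was 0.10, and Malat1 had 10142 CPM in Fos-positive cells and 9431 CPM in Fos-negative cells.

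**Figure D4:**
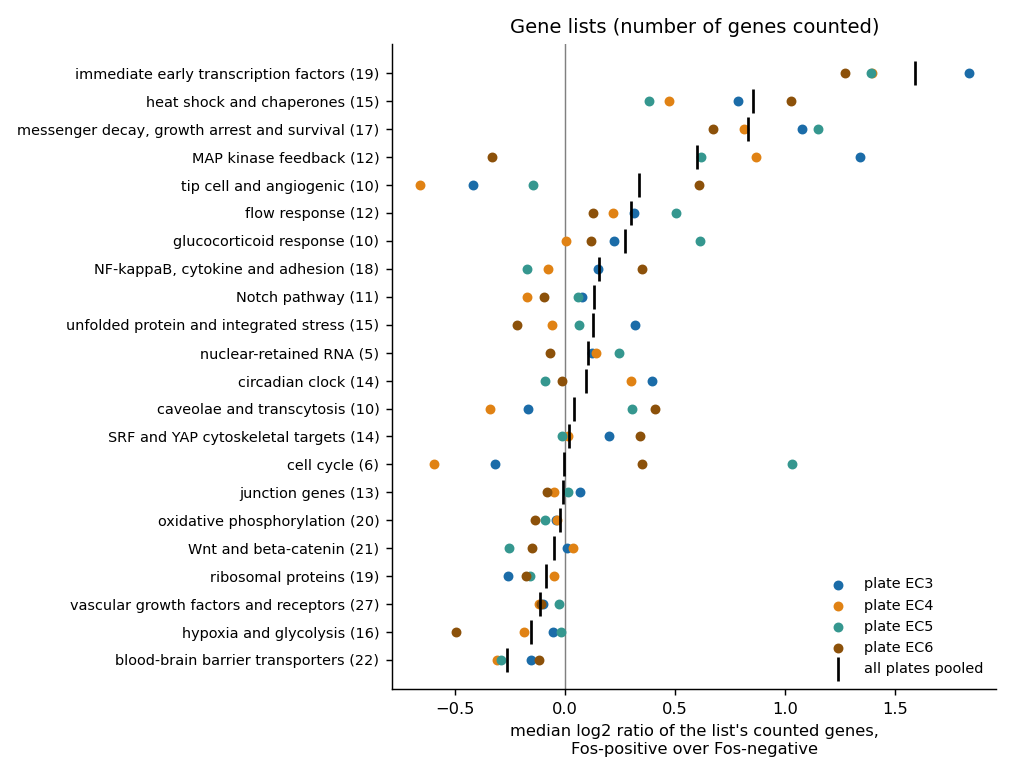
Median log2 ratio of Fos-positive over Fos-negative cells (horizontal axis) over the counted genes of each list (number in brackets), with plates as points and the pool as a black bar. The immediate early list stands furthest right, with all 4 plates between 1.27 and 1.83, and the blood-brain barrier list furthest left, at -0.26 on the pool.

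The lower genes were of another kind. The 66 called lower had a median level of 13.4 CPM on their higher side and were read in a median of 4.69% of Fos-negative cells, and 0 of them met the naming rule, against 16 of the 30 called higher. The 10 largest ratios among well-read genes that were lower on every plate, all under 2-fold on at least 1 plate, were those of Fam101b, Eif2ak2, Ndnf, Itpr1, Ist1, Net1, Vwf, Dusp22, Megf6 and Aamdc. Vwf, the von Willebrand factor of blood clotting, had 154, 81.7, 50.5 and 70.9 CPM in Fos-positive cells of EC3 to EC6, against 287, 206, 171 and 157 CPM in Fos-negative cells (log2 ratio -1.24, plates -1.74 to -0.89). Every Fos-positive pool of Vwf was below every Fos-negative pool. Fam101b, a regulator of actin filaments also known as Rflnb, had 35.4 CPM in Fos-positive cells and 127 CPM in Fos-negative cells (-1.81, plates -3.57 to -0.65). Eif2ak2, the kinase PKR that senses double-stranded RNA, had 30.7 and 92.3 CPM (-1.56, plates -2.73 to -0.46).

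Summed markers of position along the vessel tree differed between the sides inside the capillary rule. The arterial and venous sums hold genes that the rule used, so they partly describe the choice. The 10 arterial markers, of which the rule limits 5, summed to 693 CPM in Fos-positive cells (plates 480 to 1015) and to 388 CPM in Fos-negative cells (263 to 494). The plate ranges overlapped, and of 8 counted arterial markers 2 were at least 2-fold higher on the pool and 0 lower. Gja5 was the lowest arterial marker, at 0.21 and 0.01 CPM. The 10 venous markers, which include Slc38a5, summed to 166 CPM in Fos-positive cells (123 to 223), with Ackr1, Lrg1 and Cyp1b1 at 0, and to 326 CPM in Fos-negative cells (275 to 356), with Ackr1 at 0. Of these sums, Vwf alone made up 86.0 CPM in Fos-positive cells and 204 CPM in Fos-negative cells. Of 6 counted venous markers, 3 were at least 2-fold lower on the pool and 0 higher. The 10 capillary markers summed to 9529 CPM in Fos-positive cells (8889 to 11210) and to 11532 CPM in Fos-negative cells (11068 to 11886). With none of the 5 arterial genes at 20 CPM and Slc38a5 under 20 CPM, Fos-positive cells were 15.6%, 74 cells against 318 Fos-negative cells, the named genes were all still at least 2-fold higher on the pool (log2 1.11 to 3.66), and 11 of 16 were so on every plate. Among cells whose 10 arterial markers summed to under 100 CPM, an additional limit set after these values were seen, Fos-positive cells were 14.4%, and all 16 genes were 2-fold higher on the pool and 9 on every plate.

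Microglia markers also differed. The 8 markers summed to 567 CPM in Fos-positive cells and 7.36 CPM in Fos-negative cells, all 7 counted members were at least 2-fold higher on the pool, and Aif1 was at 0 in Fos-positive cells. The sums on EC3 to EC6 were 0.11, 142, 2025 and 1.09 CPM in Fos-positive cells, against 2.61, 9.60, 15.3 and 2.73 CPM in Fos-negative cells, so plate EC5 carried most of it. The sum reached 200 CPM in 4 of 122 Fos-positive wells, 3 of them on EC5, and in 4 of 426 Fos-negative wells. Without these 8 wells, a choice made after seeing them, 31 genes were called higher, among them the same 30, and the 16 named genes had log2 ratios of 1.28 to 3.50. Pericyte markers summed to 33.2 CPM in Fos-positive cells and 39.3 CPM in Fos-negative cells, smooth muscle markers to 9.40 and 22.5 CPM, astrocyte markers to 297 and 343 CPM, oligodendrocyte markers to 27.7 and 48.7 CPM and neuron markers to 28.9 and 16.6 CPM. Erythroid markers, of which 2 of 5 were matched, summed to 35.2 CPM in Fos-positive cells and 96.5 CPM in Fos-negative cells, and the fibroblast, perivascular macrophage, neutrophil and T cell, and platelet sets to under 12 CPM on either side. Without all wells in which the summed markers of pericytes, smooth muscle, fibroblasts, astrocytes, microglia, macrophages, oligodendrocytes or neurons reached 200 CPM, 62 Fos-positive and 227 Fos-negative cells remained. Of the genes then called higher, 36 in number, 15 were among the 30. All 16 named genes were still 2-fold higher on the pool, at 1.23 or more, and 11 on every plate, with Cyr61, Hspa1b, Hsp90aa1, Hspb1 and Dusp1 under 2-fold on a plate.

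The same sides were then drawn in cells that the capillary rule left out. Of the 794 other endothelial cells, 27.8% (exact 95% interval 24.7 to 31.1) had Fos at 100 CPM or more, with 45.5% (39.5 to 51.6) of the 277 cells with at least 2 arterial genes and 18.3% (15.0 to 21.9) of the 509 cells with Slc38a5 at 50 CPM or more. The capillary value of 18.7% lay beside that of the Slc38a5 cells, and the plate ranges of the arterial-gene cells (42.0 to 52.9%) and the capillary cells (15.7 to 21.6%) did not overlap. Of the 221 Fos-positive cells among these other endothelial cells, 126 were arterial-gene cells, against 116 of the 453 Fos-negative cells. The sides there thus differ in vessel position as well as in Fos, and these were not separated. All 16 named genes were at least 2-fold higher on the pool of the other endothelial cells, as 4.91% of all genes were, and 12 on each plate too, as 0.784% of all genes were. Their median log2 ratio there was 1.69.

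Among the 1484 mural cells, taken as sorted, 14.2% (12.4 to 16.0) had Fos at 100 CPM or more, and 15 of the 16 genes were at least 2-fold higher on the pool, as 9.65% of all genes were, with 14 on every plate too, as 3.74% of all genes were. The ratios were mostly larger: Junb had 1374 CPM in Fos-positive mural cells and 35.1 CPM in Fos-negative ones, a log2 ratio of 5.25 (plates 4.29 to 6.22), against 2.48 (2.23 to 2.72) in capillary cells. Dusp1 had 2488 CPM in Fos-positive mural cells and 176 CPM in Fos-negative ones (3.81). The gene that stayed under 2-fold was Apold1, with 1140 CPM in Fos-positive mural cells and 822 CPM in Fos-negative ones (0.47, plates -0.03 to 1.30), against 1.75 (1.49 to 2.34) in capillary cells. The median of the immediate early list was 3.03 in mural cells and 1.58 in the other endothelial cells.

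The named lower genes repeated less often. They had not passed the call in capillary cells, so they are not matched to the higher genes. Of the 10 named lower genes, 2 were at least 2-fold lower on the pool of the other endothelial cells (Ndnf at -1.12 and Megf6 at -1.63) as 3.54% of all genes were, and 0 among mural cells, where 10.2% of all genes were. On every plate too, 1 of the 10 was 2-fold lower in the other endothelium (Megf6, 0.323% of all genes) and 0 in mural cells (1.91%). Vwf had 634 CPM in Fos-positive and 613 CPM in Fos-negative cells of the other endothelium (0.05, plates -0.36 to 0.50). Net1, an exchange factor for the GTPase RhoA, had 58.7 CPM in Fos-positive capillary cells and 140 CPM in Fos-negative ones (-1.24), but 174 CPM in Fos-positive mural cells and 31.7 CPM in Fos-negative ones (2.42, plates 1.74 to 3.39).

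**Figure D5:**
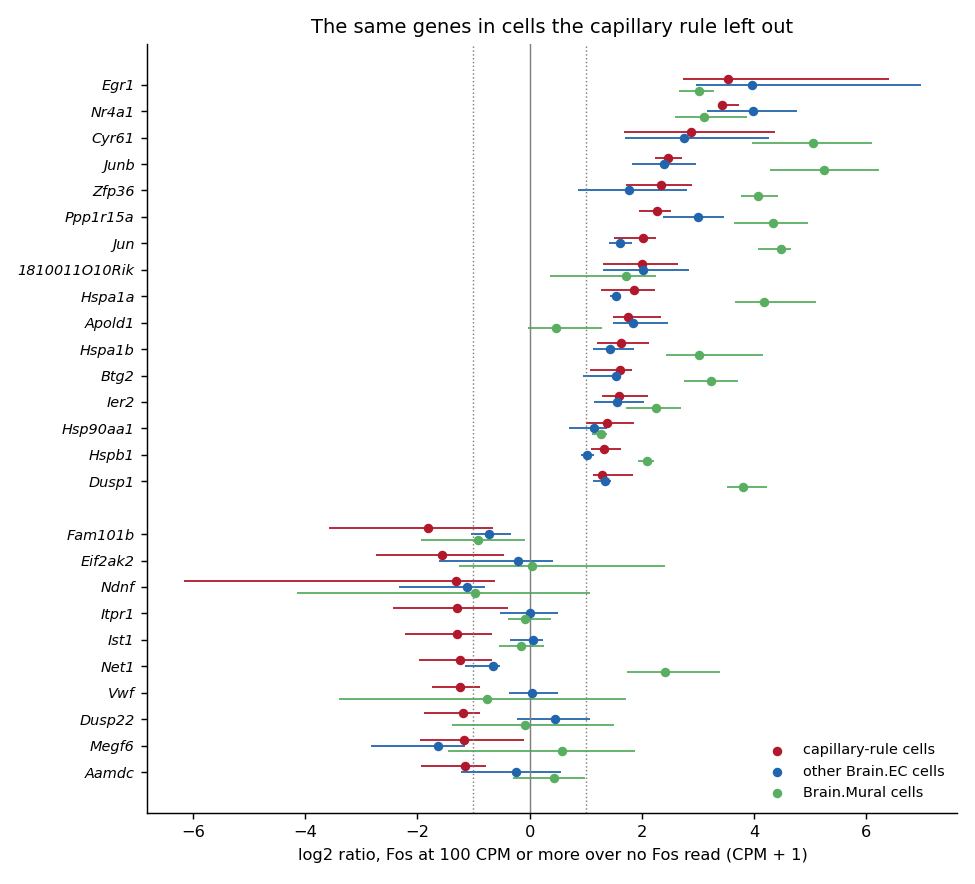
Log2 ratio of cells with Fos at 100 CPM or more over cells with no Fos read (horizontal axis), for capillary-rule cells (red), other endothelial cells (blue) and mural cells (green). Points are pools and lines the range over the 4 plates. The upper 16 genes are right of the 2-fold line in all 3 populations except Apold1 in mural cells at 0.47. Outside the capillary cells the lower 10 lie on both sides of 0, from Megf6 at -1.63 in other endothelial cells to Net1 at 2.42 in mural cells.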

How the data were processed

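Single endothelial cells were sorted and sequenced by the Smart-seq2 method, per the labels. The submitters' processing notes name STAR 2.4.2a and mm10. For the gene counter and annotation nothing is stated in the labels or headers. The deposited table holds raw read counts per gene and cell, without molecular tags (99905 to 1606954 reads in a cell, median 350339), for 19937 genes and 3186 cells. The authors' scaled table was not used. No 2 cells had identical counts.

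Counts were scaled to CPM of the column total. Reads of a side were summed over its cells, for all plates and within each, and set as log2 of CPM plus 1, Fos-positive over Fos-negative. Genes under 5 CPM on both sides were left out. A gene was called when the pool and all 4 plates differed by 2-fold or more, with the same sign. Named were up to 25 called genes in each direction at 50 CPM and in 25% of the cells of the higher side, filled to 10 from those below 2-fold on a plate, all immediate early factors, and the ends of 22 other lists at 20 CPM. The members, lists and markers were chosen with earlier results of these data known. Intervals at 95% are exact Poisson for reads and Clopper-Pearson for shares of cells. They cover counting error only, since PCR reads are not independent molecules and the animals of the cells are unknown. The labels tie no cell to an animal, so no test was run. Doublets were not called, and wells with markers of other types were left out as an alternative. Other thresholds, thinning, pseudocounts and plates were tried as alternatives. The steps were tested on simulated data and ran in Python 3.11.15 with numpy 2.4.6, pandas 2.3.3, scipy 1.17.1 and matplotlib 3.10.9. Gene positions are from GENCODE M21 and upstream sequences from RefSeq.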

Additional observations from a re-analysis of the deposited data

Results flagged for a closer look

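In 93 sets of 4 plate values, 14 had a plate whose distance from the nearest other exceeded Dixon's 95% limit, and chance marks about 1 set in 20. Plates are not animals, and many of these values rest on few reads. For log2 ratios of Fos-positive over Fos-negative cells the plate apart was at 6.41 for Egr1 (EC3), 1.84 for Dusp1 (EC3), -6.16 for Ndnf (EC5), 0.71 for Klf4 (EC6) and 1.42 for Klf10 (EC3), and the median of the vascular growth factor list was -0.027 on EC5. For summed markers it was 2025 CPM of microglia markers in Fos-positive cells of EC5, 167.6 CPM of erythroid markers in Fos-positive cells of EC3, 19.0 CPM of smooth muscle markers in Fos-positive cells of EC5, 13.5 CPM of fibroblast markers in Fos-positive cells of EC6 and 5.72 CPM in Fos-negative cells of EC5, 5.29 CPM of perivascular macrophage markers in Fos-positive cells of EC3, 24.3 CPM of pericyte markers in Fos-negative cells of EC6, and 11.3 CPM of neutrophil and T cell markers in Fos-negative cells of EC6.

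Net1 was lower in Fos-positive cells on all 4 capillary plates (-1.24 on the pool) and higher on all 4 mural plates (2.42). The difference between the populations was not tested.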

How the results depend on the processing

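The 16 named higher genes were above 0 in each of 23 alternatives, and at least 2-fold on the pool in all but the mural cells, where Apold1 was at 0.47. The call on every plate was less stable: 11 of the 16 had it in cells of at least 300000 reads (not 1810011O10Rik, Hspa1a, Btg2, Ier2 and Hsp90aa1), 11 without wells with other markers, 11 under the stricter capillary rule (not Cyr61, 1810011O10Rik, Btg2, Hsp90aa1 and Dusp1) and 9 with arterial markers under 100 CPM. In the other alternatives on capillary cells 14 to 16 had it. Leaving out a plate, which also asks agreement of 3 plates in place of 4, gave 70 to 90 higher and 184 to 224 lower genes, shares of 17.9 to 19.7%, and immediate early medians of 1.51 to 1.74. The same ranges were 0.63 to 0.95 for heat shock, 0.35 to 1.15 for MAP kinase feedback, 0.78 to 0.88 for messenger decay and -0.25 to -0.21 for barrier transporters. The lower count was 145 with Fos-positive at 500 CPM, 160 under the stricter capillary rule, 215 with arterial markers under 100 CPM, 192 without wells with other markers, 19 with a pseudocount of 5 CPM and 13 with a filter of 20 CPM. The share of Fos-positive cells was 13.8% at 500 CPM, 15.6% under the stricter rule and 14.4% with arterial markers under 100 CPM. The immediate early median was 1.31 with no filter, and the heat shock median 0.52 as a mean of plates. In other endothelial cells the share was 27.8%, with 80 higher and 33 lower genes and medians of 0.40 for heat shock and -0.62 for barrier transporters, and in mural cells 14.2%, 411, 210 and an immediate early median of 3.03. The sides of the other endothelial cells also differ in vessel position. The cause of these shifts was not tested.

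No paired analysis was possible because each sample is 1 cell and the labels give neither animals nor shared replicate numbers. Both sides were set against each other within each plate instead. With 122 Fos-positive cells, genes read in few cells rest on single libraries.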
